A study of Mus musculus with 12 samples.

Results

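The immunoglobulin constant genes were examined in transcriptomes of purified CD4+ T cells, taken from 2 mouse strains named B6 and SLE123. They encode the constant regions of antibodies: 8 heavy-chain genes (Ighm, Ighd, Ighg1, Ighg2b, Ighg2c, Ighg3, Igha and Ighe) and the kappa light-chain gene Igkc. The members were chosen by name, and 8 of the 9, among the 35275 genes of the table, were found by their gene identifier. Ighd was not found under its identifier and was not analysed here, so every heavy-chain total below is the sum over 7 genes.

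B6 is the C57BL/6 strain, and SLE123 is a congenic strain on the same background that carries the lupus susceptibility loci Sle1, Sle2 and Sle3 together (B6.NZMSle1/Sle2/Sle3 in the labels). There were 3 female mice in each of 4 groups: B6 untreated, B6 given anti-CD45RB, SLE123 untreated, and SLE123 given anti-CD45RB. Anti-CD45RB is clone MB23G2, an antibody that induces transplantation tolerance, and was injected 5 times at 100 μg, from day 0 to day 7. The mice were 9 weeks old according to the methods and between 9 and 12 weeks old according to the figure legend. No control antibody is named for the untreated mice, so that the antibody and the injections cannot be told apart. The cells were enriched by magnetic depletion of other cells, and 1 library was made per mouse. The values are FPKM, in which the fragments counted for a gene are divided by its length and by the depth of the library. The fragments recovered from the FPKM steps totalled 13562933 to 23641603 per library.

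B cells and plasma cells make these transcripts, and CD4+ T cells do not make antibodies. A naive B cell expresses Ighm and Ighd. After stimulation, class switch recombination joins the rearranged variable segment to an Ighg gene, Igha or Ighe, and signals from T helper cells direct that choice: IL-4 favours Ighg1 and Ighe, interferon-gamma favours Ighg2c, and TGF-beta favours Igha. Lupus-prone strains are known for plasma cell expansion and for IgG autoantibodies.

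The labelled cell type was checked first. Cd4, the co-receptor that defines the sorted cells, was between 237 and 327 FPKM in all 12 libraries, and the summed level of 11 T cell markers was between 2871 and 3799 FPKM. B cell markers were present at lower levels, with a summed level of 12 genes between 7.48 and 266 FPKM. Jchain, the joining chain of secreted IgM and IgA, was 29.2 to 46.8, 52.7 to 134, 1634 to 4204 and 826 to 1517 FPKM in untreated B6, treated B6, untreated SLE123 and treated SLE123 mice, in that order.

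Libraries also stood apart in other ways. Liver transcripts were present in all 6 B6 libraries and in treated SLE123 mouse 1 (albumin, Alb, 24.7 to 30.7 FPKM), and at most 0.0296 FPKM in the other 5 SLE123 libraries. Treated SLE123 mice 2 and 3 were closer to each other than any other pair within a group. The chi-square per degree of freedom between their fragments was 2.15 over genes other than immunoglobulins, against 3.20 to 46.3 in the other 11 pairs, and the usage of variable segments correlated with r = 0.995, against 0.931 to 0.940 in the other SLE123 pairs. The labels give them as separate mice and they were kept as such, but whether both libraries came from separate mice was not tested. The share and ratio differences, the calls between treated strains and those of the difference between strains are therefore also given with the pair averaged as 1 mouse.

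The 7 heavy-chain genes lie side by side on the minus strand of chromosome 12, from Igha at chr12:113254830-113260236 to Ighm at chr12:113418558-113422730 (GRCm38), with Ighg1 at chr12:113325240-113330523, and Igkc lies on the plus strand at chr6:70726435-70726966. The 4 Ighg genes have similar coding sequences, so the letters that tell them apart matter for what follows. Their hinge exons, which form the flexible region between the antigen-binding arms and the stem of the antibody, are shown because they differ in length and in cysteines between the 4 IgG subclasses. They were read from GENCODE M21 transcripts, with cysteine codons in capitals. Hinge cysteines take part in the disulfide bonds between the paired heavy chains. Which of the marked ones do so was not examined.
Ighg1, chr12:113329844-113329882: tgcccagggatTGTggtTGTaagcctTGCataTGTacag
Ighg2b, chr12:113307261-113307326: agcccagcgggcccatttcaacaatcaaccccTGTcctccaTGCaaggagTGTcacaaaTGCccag
Ighg2c, chr12:113288263-113288325: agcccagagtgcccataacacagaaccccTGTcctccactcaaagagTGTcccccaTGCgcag
Ighg3, chr12:113360529-113360576: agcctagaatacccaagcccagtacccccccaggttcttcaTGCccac

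The hinge of Ighg1 is the shortest, at 39 bases with 4 cysteine codons, and that of Ighg3 holds 1 such codon in 48 bases. Over the whole coding sequence, Ighg2b and Ighg2c were the most alike, with 85.7% identity, while Ighg1 was 74.1% to 75.5% identical to the other 3. Of all windows of 50 bases in Ighg2b, 5.85% also occurred in Ighg2c. No such window was shared by any other pair of the 7 heavy-chain genes. At 25 bases, Ighg2b shared 14.8% of its windows with Ighg2c, and Ighg1 shared at most 1.37% of its windows with another gene. How reads that match more than 1 gene were counted is not given in the sources used here, so the split between Ighg2b and Ighg2c is less certain than that of Ighg1.

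In untreated B6 mice, the heavy-chain signal was mostly Ighm. The share of each isotype was taken as its FPKM over the sum of the 7 heavy-chain genes in the same mouse. Ighm, the constant gene of IgM, held 83.5%, 84.9% and 83.7% of the signal in untreated B6 mice 3, 4 and 5. It held 60.3%, 44.9% and 73.2% in treated B6 mice 1, 3 and 5, with no overlap between the groups. In SLE123 the shares of Ighm were 44.9%, 61.6% and 47.6% in the untreated mice and 44.1%, 42.8% and 42.9% in the treated mice, all of them below every untreated B6 mouse. On average the share of Ighm after treatment differed by -24.6 percentage points in B6 and by -8.09 points in SLE123. The SLE123 difference was -2.98 points without untreated mouse 2, the mouse with the highest share of Ighm in that group.

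**Figure D1:**
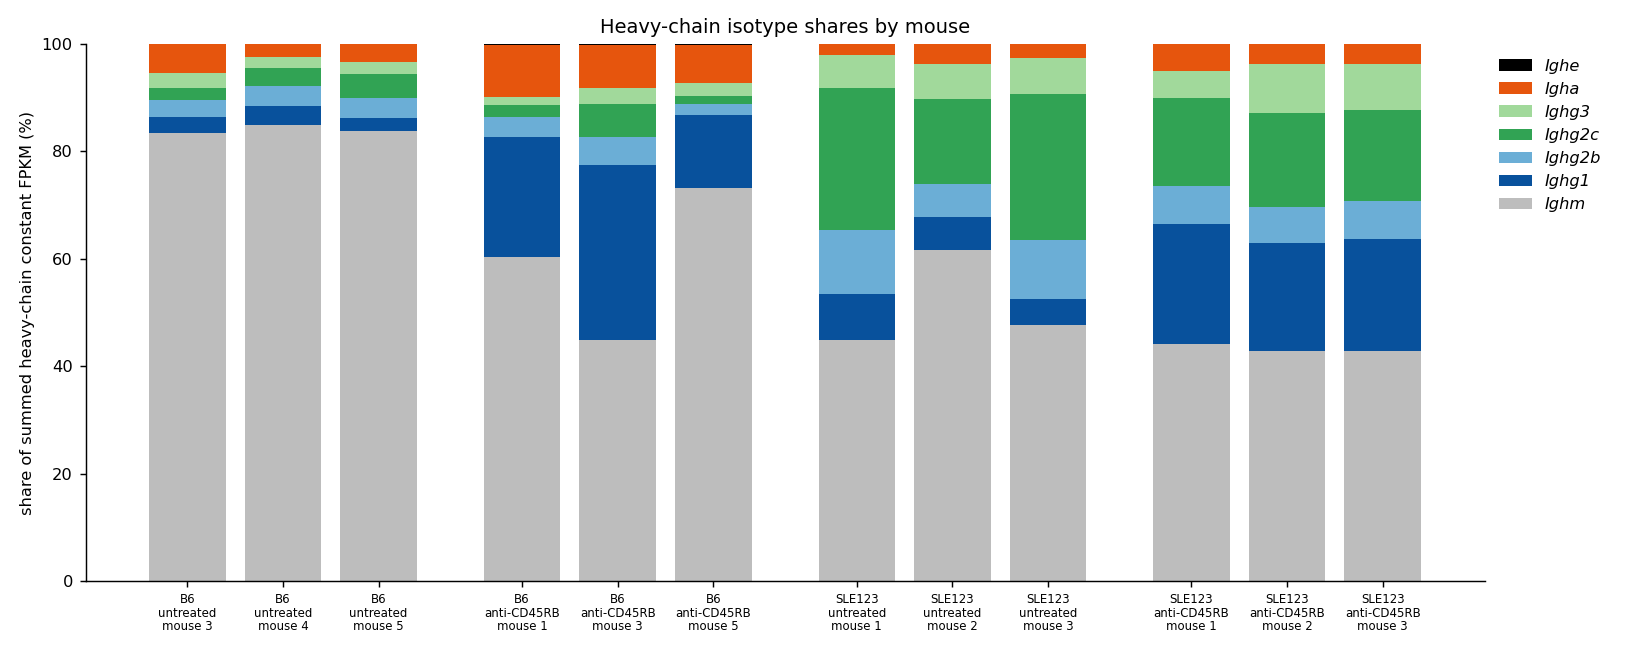
Stacked bars give the share of each heavy-chain constant gene in the summed heavy-chain FPKM (y axis, %), with 1 bar for each of the 12 mice, grouped by strain and treatment. The Ighg1 part widens from at most 3.49% to at least 13.6% in B6 and from at most 8.54% to at least 20.05% in SLE123, and the Ighg2c part is at least 15.9% in every SLE123 mouse and at most 6.29% in every B6 mouse.

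The share of Ighg1, the constant gene of IgG1, was higher after treatment. Ighg1 held 2.93%, 3.49% and 2.50% of the heavy-chain signal in the untreated B6 mice and 22.4%, 32.7% and 13.6% in the treated B6 mice. In SLE123 it held 8.54%, 6.22% and 4.95% without treatment and 22.3%, 20.05% and 20.8% with it. The treated mice lay above the untreated mice in both strains, by 19.9 percentage points in B6 and by 14.5 in SLE123. With treatment relabelled within each strain, the mean of both differences was 17.2 points (exact permutation p = 0.005, two-sided, which is the lowest value 400 relabelings can give). Adjusted over the 11 per-mouse values examined, that permutation p was 0.0138. Within 1 strain the smallest possible p is 0.1, and both strains gave it. The difference between the strains in this effect was -5.46 points (exact permutation p = 0.655). With treated SLE123 mice 2 and 3 averaged as 1 mouse, the mean difference was 17.4 points (exact permutation p = 0.005).

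Igha, the constant gene of IgA, also held more of the signal after treatment. Its share was 5.49%, 2.42% and 3.37% in the untreated B6 mice and 9.65%, 8.12% and 7.07% in the treated ones, and in SLE123 it was 1.94%, 3.67% and 2.51% without treatment and 5.09%, 3.75% and 3.77% with it. The groups did not overlap in either strain, although the closest SLE123 mice were 3.67% and 3.75%. The mean difference with treatment was 3.01 points (two-sided exact permutation p = 0.005, adjusted p = 0.01 over the 4 planned values), and that of Ighm was -16.3 points (exact permutation p = 0.005, adjusted p = 0.01). The 4 Ighg genes together differed by 13.3 points (exact permutation p = 0.01, adjusted p = 0.0133). Without any 1 of the 3 untreated B6 mice, that last difference no longer passed (12.97, 13.39 and 13.44 points, each exact permutation p = 0.06). With treated SLE123 mice 2 and 3 averaged, the differences were 3.12 points for Igha (exact permutation p = 0.01), -16.2 for Ighm (p = 0.015) and 13.1 for the Ighg genes (p = 0.03).

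SLE123 mice differed from B6 in another IgG gene. Ighg2c encodes IgG2c, the subclass that B6 mice carry in place of IgG2a. It held 26.3%, 15.9% and 27.2% of the signal in untreated SLE123 mice and 16.4%, 17.5% and 16.9% in treated ones, against 2.19%, 3.30% and 4.51% in untreated and 2.26%, 6.29% and 1.52% in treated B6 mice. With strain relabelled within each treatment, the difference was 16.7 points (exact permutation p = 0.005, adjusted p = 0.00688 over 11 values). Ighg2b and Ighg3, which encode IgG2b and IgG3, were also higher in share in SLE123, by 4.75 and 4.70 points (each exact permutation p = 0.005, adjusted p = 0.00688). Ighg1 was not distinguishable between the strains on this measure, with a difference of 0.869 points (exact permutation p = 0.79) that turned to -1.45 points without treated B6 mouse 5. The share of Igha in SLE123 differed from that in B6 by a mean of -2.56 points (exact permutation p = 0.025, adjusted p = 0.025 over the 4 planned values). Most of this lay in the treated mice, at -4.08 points (exact permutation p = 0.1, the smallest possible there). In untreated mice it was -1.05 points (exact permutation p = 0.5), and the strains overlapped. With treated SLE123 mice 2 and 3 averaged, the exact permutation p of the strain differences over both treatments was 0.005 for Ighg2c and Ighg3. It was 0.01 for Ighg2b, 0.03 for Igha and 0.755 for Ighg1.

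The ratio of Ighg1 to Ighg2c was lowest in untreated SLE123 and highest in treated B6 mice, while untreated B6 and treated SLE123 mice overlapped. It was 1.34, 1.06 and 0.555 in untreated B6 mice and 9.94, 5.20 and 8.99 in treated ones. In SLE123 it was 0.325, 0.391 and 0.182 without treatment and 1.36, 1.14 and 1.23 with it. Treated mice were higher in both strains, by 3.07 on the log2 scale in B6 and 2.12 in SLE123 (mean 2.60, exact permutation p = 0.005, adjusted p = 0.0138 over 11 values), and SLE123 was lower than B6 by a mean log2 difference of -2.17 (exact permutation p = 0.005, adjusted p = 0.00688). The treatment difference was between 2.41 and 2.74 whichever mouse was left out. With treated SLE123 mice 2 and 3 averaged, it was 2.61 and the strain difference -2.15 (each exact permutation p = 0.005). Counting whole fragments instead of FPKM left these differences the same, because the gene lengths cancel. The ratio was added after the values were seen. It joins the levels behind the shares of Ighg1 and Ighg2c given above, so its p-values are not separate support.

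**Figure D2:**
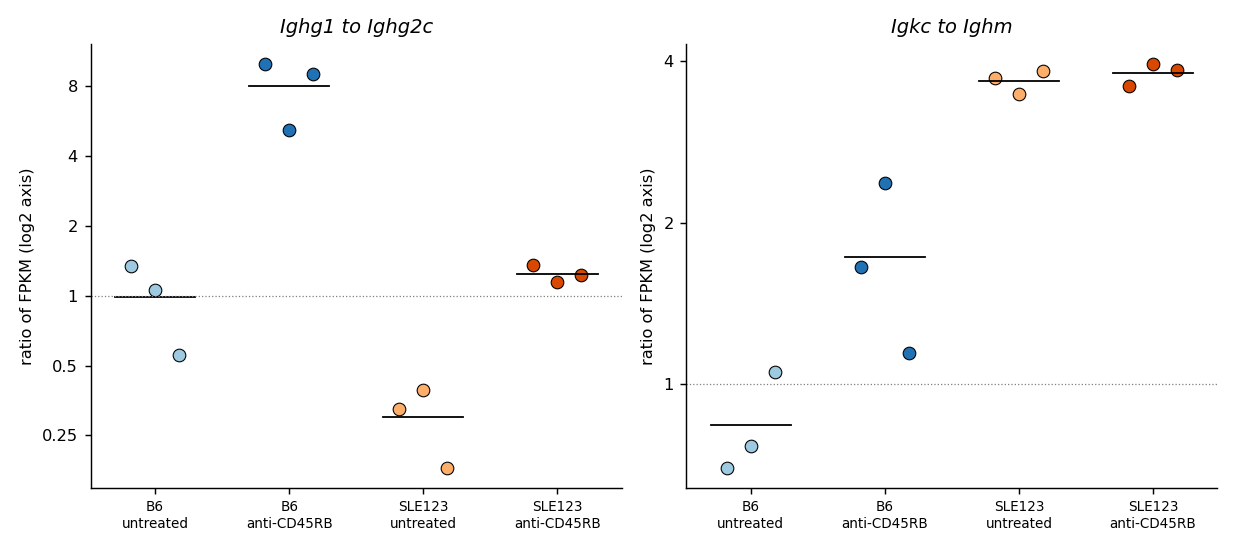
Each point is 1 mouse, the horizontal bars are group means, and the y axes give the ratio of FPKM on a log2 axis, with a dotted line at 1. Ighg1 to Ighg2c is at least 5.20 in treated B6 mice and at most 0.391 in untreated SLE123 mice, and Igkc to Ighm is at most 2.37 in B6 mice and at least 3.47 in SLE123 mice.

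The levels behind these shares were far apart between the strains. Ighm was 379, 415 and 512 FPKM in untreated B6 mice, above Cd4 in the same libraries (295 to 307 FPKM), and 499, 706 and 534 FPKM in treated B6 mice. It was 9255, 15918 and 22737 FPKM in untreated SLE123 mice and 4375, 8799 and 9189 in treated ones. Within SLE123 the treated mice lay below the untreated ones, with 9189 against 9255 FPKM as the closest values. Igkc, the constant gene of kappa light chains, was 265, 319 and 539 FPKM in untreated B6, 825, 1676 and 612 in treated B6, 34323, 55177 and 87067 in untreated SLE123 and 15736, 34695 and 35329 in treated SLE123. The lowest treated SLE123 value for Igkc, Ighm and each of the other 6 members was in mouse 1, the library with liver transcripts. Its Igkc level was still above every treated B6 mouse, whose highest was 1676 FPKM. In these bulk samples, more antibody-producing cells and more immunoglobulin RNA per cell cannot be told apart.

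**Figure D3:**
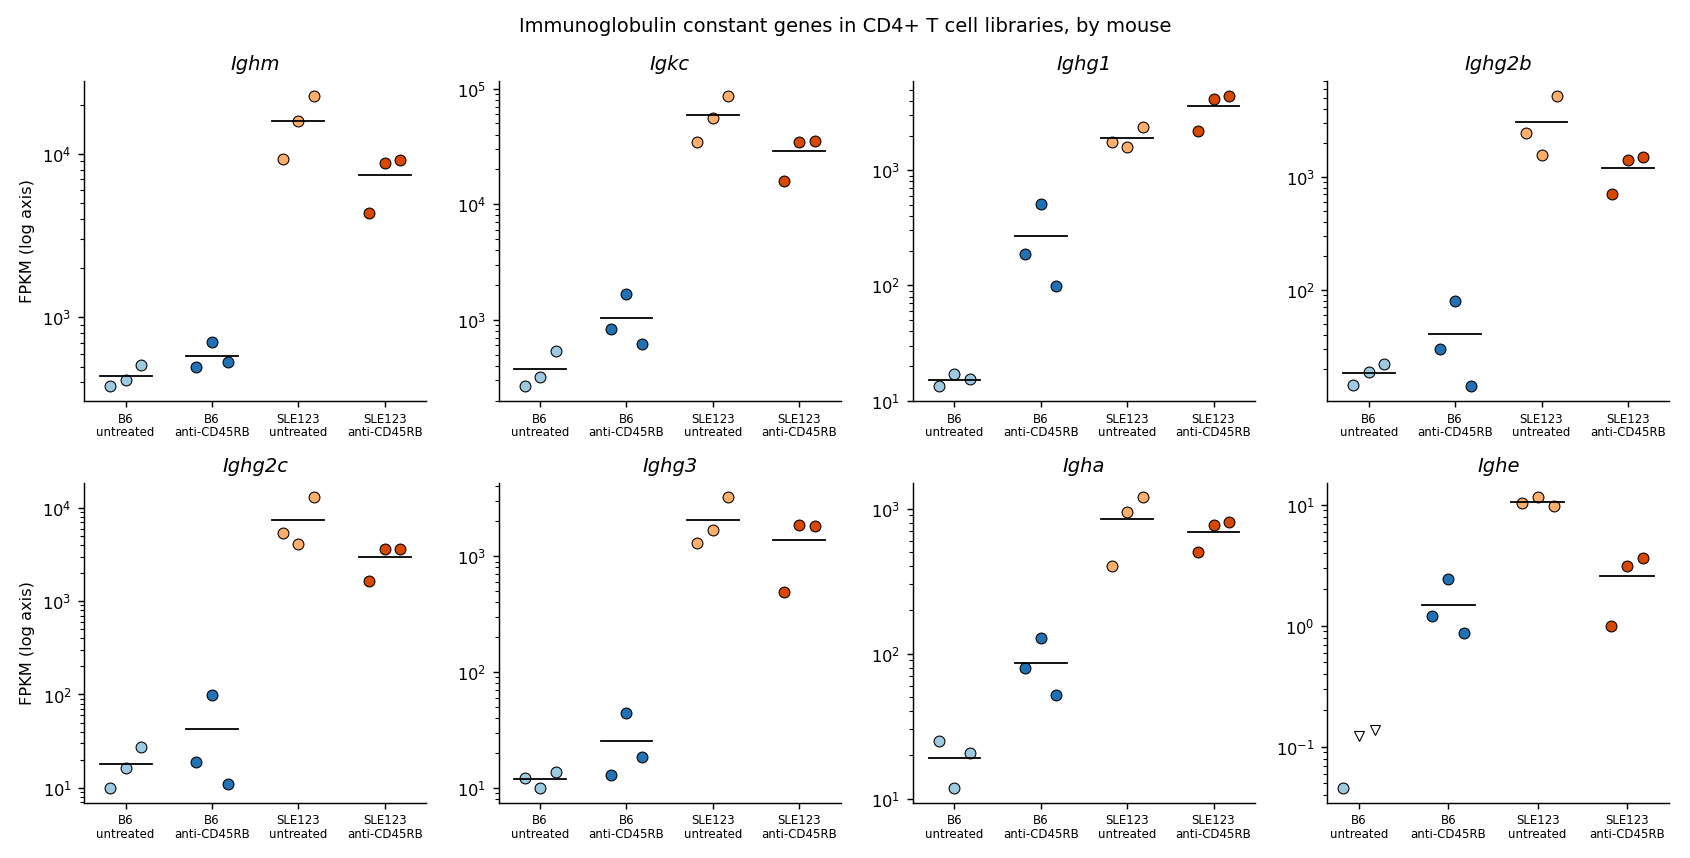
Each panel is 1 constant gene, each point is 1 mouse, the y axes give FPKM on a log axis, and the horizontal bars are group means. Open triangles mark untreated B6 mice with no Ighe fragment, drawn at the level that 3 fragments would give, and no mean is drawn for that group. Both SLE123 groups lie above both B6 groups for every gene except Ighe, for which treated SLE123 mice (1.01 to 3.65) overlap treated B6 mice (0.875 to 2.43).

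In the untreated mice, limma on log2(FPKM + 1) called 8 of 8 members higher in SLE123 than in B6, where 22.8% of all 13115 genes tested were called higher. Because 1 is added to each value, a fold change on this scale is compressed where FPKM is low. The log2 fold changes were 8.57 ± 0.48 (SE, n = 3 mice per group) for Ighg2c, 7.26 ± 0.44 for Igkc, 7.22 ± 0.31 for Ighg3, 7.14 ± 0.41 for Ighg2b and 6.87 ± 0.16 for Ighg1, with limma adjusted p-values between 7.46e-07 and 3.32e-05. They were 5.32 ± 0.43 for Igha, 5.11 ± 0.35 for Ighm and 3.51 ± 0.10 for Ighe. Ighg2b was 14.4 to 22.3 FPKM in B6 and 1557 to 5222 in SLE123, Ighg3 was 9.98 to 13.7 and 1293 to 3226, and Igha was 11.8 to 24.9 and 399 to 1198. As a ratio of group means, Ighg2c was 421-fold higher in SLE123, or 267-fold without untreated SLE123 mouse 3, and Ighm was 36.7-fold higher. The 8 members made up 3.67% to 8.83% of all fragments in untreated SLE123 libraries and 0.0703% to 0.101% in untreated B6 libraries. Rescaling to the fragments outside immunoglobulin genes called the same 8 genes. All B6 libraries held liver transcripts and no untreated SLE123 library did, so that their presence and the strain cannot be told apart here.

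After anti-CD45RB, 7 of 8 members were higher in SLE123 than in B6, where 29.6% of all genes were called higher. In the treated mice, Ighg2b was 14.1 to 79.2 FPKM in B6 and 702 to 1490 in SLE123, Ighg3 was 12.9 to 44.8 and 489 to 1853, and Igha was 51.6 to 128 and 505 to 806. The log2 fold changes of these 7 were between 3.06 ± 0.33 for Igha and 6.59 ± 0.77 for Ighg2c, each smaller than the one for the same gene in untreated mice. Ighe was the exception, at 0.48 ± 0.36 (limma adjusted p = 0.297). Without treated SLE123 mouse 1, Ighe was also called (0.86, adjusted p = 0.0347). With treated SLE123 mice 2 and 3 averaged as 1 mouse, the same 7 genes were called.

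In B6 mice, 3 of 8 members rose after anti-CD45RB, against 8.74% of all genes called higher. Ighg1 rose from 13.3, 17.0 and 15.3 FPKM to 186, 514 and 99.6, which is 17.5-fold between group means and 3.72 ± 0.53 on the log2 scale (limma adjusted p = 0.00745). Without treated B6 mouse 3 the fold was 9.38 and the log2 fold change 3.09. The 3 treated B6 mice were spread widely, but the lowest of them lay well above the highest untreated mouse. Igha rose from 24.9, 11.8 and 20.6 FPKM to 79.9, 128 and 51.6, by 2.09 ± 0.37 (adjusted p = 0.015).

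Ighe, the constant gene of IgE, the antibody class of allergic responses, rose from near absence. The untreated B6 libraries held 1, 0 and 0 fragments of Ighe, where 0 fragments allow up to 0.122 and 0.137 FPKM in mice 4 and 5. The treated ones held 22, 54 and 20, or 1.19, 2.43 and 0.875 FPKM. The ratio of fragment rates was 103, with an exact 95% interval of 18.1 to 4122 that covers counting error only. The log2 fold change was 1.25 ± 0.21 (limma adjusted p = 0.0133). Leaving out untreated B6 mouse 4 ended the calls of Igha (adjusted p = 0.0514) and Ighe (adjusted p = 0.0559), and testing all genes without a filter on low values ended all 3 (adjusted p = 0.0502 for Ighg1, 0.0757 for Igha and 0.0627 for Ighe).

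The other 5 members did not pass the test in B6. Their log2 fold changes were 1.40 ± 0.40 for Igkc (adjusted p = 0.0609, and 0.0216 with voom on recovered fragments), 0.85 ± 0.40 for Ighg3, 0.80 ± 0.55 for Ighg2b, 0.72 ± 0.77 for Ighg2c and 0.41 ± 0.15 for Ighm (adjusted p = 0.12). Igkc did not overlap between the groups, at 612 FPKM in the lowest treated mouse against 539 in the highest untreated one. Treated B6 mouse 3 was the highest of its group for all 8 members. Without it, the log2 fold change of Ighg2c was -0.18, while Ighg1, Igha and Ighe were still called.

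In SLE123 mice, limma called 0 of 8 members after anti-CD45RB, beside 0.0381% of all tested genes in either direction. At an unadjusted p under 0.05, limma counted 2 members, Ighe and Ighg2b. Of all 13115 genes tested, 1369 had such a p in SLE123, which is also the background for the gene lists below. At the adjusted threshold, limma's voom on recovered fragments called 0 members. Ighg1 was 1760, 1608 and 2366 FPKM in untreated mice and 2212, 4121 and 4451 in treated mice, a log2 fold change of 0.87 ± 0.42 (adjusted p = 0.475) with overlap between mouse 3 of the untreated and mouse 1 of the treated group. The other heavy-chain genes had estimates below 0. Ighg2c was 5420, 4114 and 13014 FPKM without treatment and 1629, 3603 and 3628 with it, -1.26 ± 0.65 (adjusted p = 0.485), and Ighg2b was -1.25 ± 0.53 (adjusted p = 0.469). Both were without overlap. The estimates were -1.08 ± 0.92 for Ighm, -0.69 ± 0.61 for Ighg3 and -0.18 ± 0.42 for Igha, and that of Igha turned positive without untreated mouse 3 (0.14). Igkc gave -1.03 ± 2.28 (adjusted p = 0.869), with overlapping groups. An SE here comes from limma's eBayes with trend, which draws on all genes, so it is not the spread between these mice alone. The adjusted p of Igkc rests on that SE. For Igkc the SE was 0.40 in B6 and 0.67 in the test of the difference between the strains. For Ighm these were 0.15 and 0.49. With each SLE123 mouse left out in turn, the Igkc estimate was -1.37 to -0.65.

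Ighe showed the smallest p of the 8 in SLE123. It was 10.4, 11.5 and 9.80 FPKM in the untreated mice and 1.01, 3.12 and 3.65 in the treated mice, on 233, 293 and 315 against 23, 80 and 91 fragments. The untreated mean was 4.08 times the treated mean. The log2 fold change was -1.77 ± 0.30 (limma adjusted p = 0.233), and in a fit of all 12 mice it was called (adjusted p = 0.0273). Every untreated SLE123 mouse lay above every treated one, and the treated SLE123 mice overlapped the treated B6 mice.

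**Figure D4:**
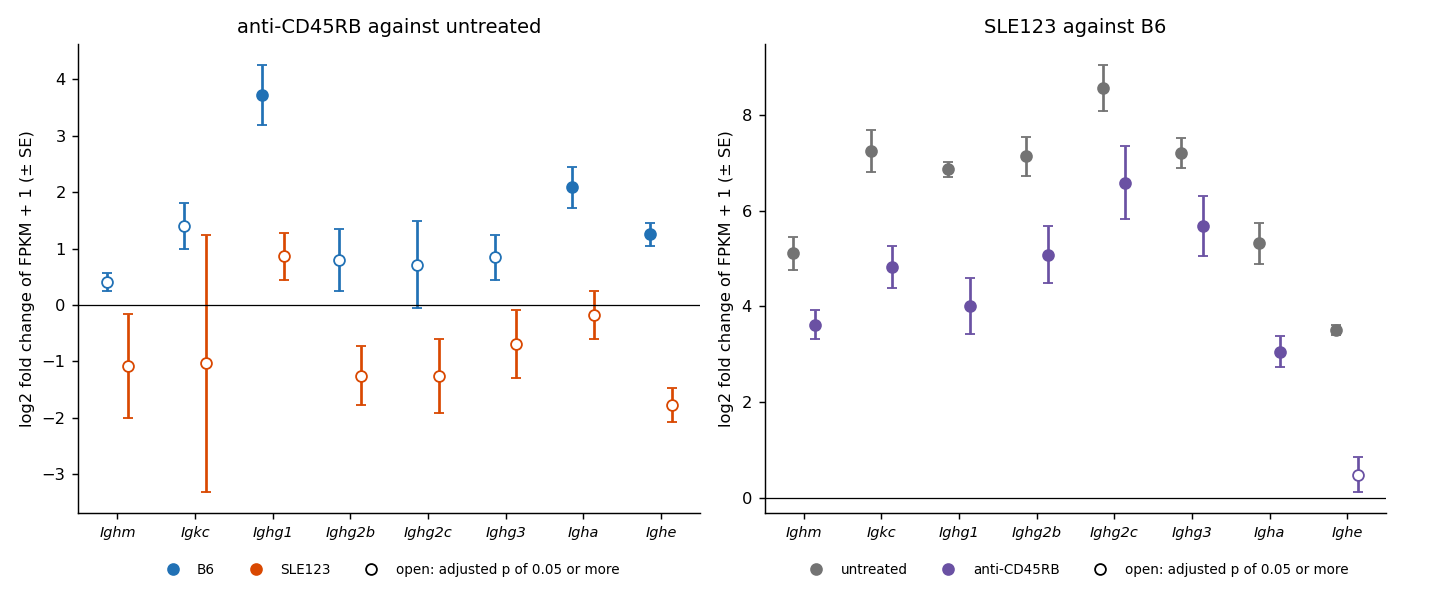
Points give the limma log2 fold change of FPKM + 1 for the 8 constant genes. Bars give ± the SE from limma's eBayes with trend (n = 3 mice per group), and open points have an adjusted p of 0.05 or more. On the left (anti-CD45RB against untreated), Ighg1, Igha and Ighe are filled in B6 and no gene is filled in SLE123. On the right (SLE123 against B6), each gene is lower in the treated than in the untreated comparison.

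Whether the effect of anti-CD45RB differed between the strains was tested directly. The estimate (the effect in SLE123 minus that in B6) was below 0 for all 8 members, which share their mice, and 2 of 8 were called lower, where 2.38% of all genes were. These were Ighe (-3.03 ± 0.41, limma adjusted p = 0.00346) and Ighg1 (-2.86 ± 0.67, adjusted p = 0.0424). The call of Ighg1 was lost without any 1 of 9 of the 12 mice and with treated SLE123 mice 2 and 3 averaged (adjusted p = 0.0743). It was also lost with voom (adjusted p = 0.0607), with robust variance estimates (0.0666), without a filter (0.078) and with a replicate block (0.178). Ighe was called in each of those fits except the replicate block (adjusted p = 0.0605). The others ranged from -2.43 ± 0.67 for Igkc (adjusted p = 0.068) to -1.49 ± 0.49 for Ighm (adjusted p = 0.104), and Igkc, Igha and Ighm were also called without untreated SLE123 mouse 1. In share of the heavy-chain signal, the difference of Ighg1 between the strains (-5.46 points) did not pass the permutation test. The share of Ighe was 0.0101%, 0% and 0% in untreated B6 mice and 0.144%, 0.154% and 0.120% in treated ones, but 0.0504%, 0.0446% and 0.0205% in untreated SLE123 mice and 0.0101%, 0.0152% and 0.0171% in treated ones. That difference between the strains was -0.16 points (two-sided exact permutation p = 0.005, adjusted p = 0.055 over 11 values), and with treated SLE123 mice 2 and 3 averaged the permutation p was 0.01.

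Most of the light-chain signal that could be measured was kappa. Of the lambda constant genes, Iglc2 was found, at 15.3 to 22.3 FPKM in untreated B6, 26.2 to 52.7 in treated B6, 235 to 733 in untreated SLE123 and 178 to 312 in treated SLE123, and Iglc1 and Iglc3 were not analysed here. Igkc held 93.5% to 96.1% of the sum of Igkc and Iglc2 in untreated B6, 95.2% to 96.9% in treated B6, 99.1% to 99.3% in untreated SLE123 and 98.9% to 99.2% in treated SLE123. Without Iglc1 and Iglc3, this is not the kappa share of all light chains. Counted in fragments, which are not divided by gene length, it was 88.4% to 92.9% in untreated B6 and 91.4% to 94.4% in treated B6. In SLE123 it was 97.9% to 98.7% on fragments. In FPKM, the strains differed by 3.60 points (two-sided exact permutation p = 0.005, adjusted p = 0.00667 over the 4 planned values), and treatment by 0.765 points (exact permutation p = 0.18). Relative to Ighm, Igkc was 0.70, 0.77 and 1.05 in untreated B6 mice, 1.65, 2.37 and 1.15 in treated B6 mice, and between 3.47 and 3.94 in all 6 SLE123 mice. The log2 ratio was higher in SLE123 by 1.67 (exact permutation p = 0.005, adjusted p = 0.00688 over 11 values). With treated SLE123 mice 2 and 3 averaged, the strain difference was 3.57 points for the kappa share (exact permutation p = 0.005) and 1.66 for the log2 ratio (p = 0.01).

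Jchain was higher in SLE123 than in B6 without treatment (log2 fold change 6.14 ± 0.34, limma adjusted p = 2.55e-05) and with it (3.99 ± 0.39, adjusted p = 0.000265), and was not called after treatment in B6 (1.07 ± 0.36, adjusted p = 0.089) or SLE123 (-1.08 ± 0.44, adjusted p = 0.469). The level of Ighm relative to Jchain was 10.9 to 13.1 in untreated B6, 5.27 to 10.1 in treated B6, 5.41 to 6.55 in untreated SLE123 and 5.30 to 6.56 in treated SLE123. That of Ighg1 relative to Jchain was 0.327 to 0.538 in untreated B6 and 1.89 to 3.83 in treated B6, and 0.563 to 1.08 in untreated SLE123 and 2.68 to 3.18 in treated SLE123. The Ighg1 level was thus higher per unit of Jchain in every treated mouse than in every untreated mouse.

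A transcript from a rearranged heavy-chain locus carries a variable segment, whereas the germline transcripts that precede class switching carry none. The fragments of 104 Ighv segments amounted to 0.104 to 0.133 of those of the heavy-chain constant genes in untreated B6, 0.137 to 0.198 in treated B6, 0.160 to 0.209 in untreated SLE123 and 0.249 to 0.268 in treated SLE123. Treated mice were above untreated mice within each strain. The fragments of 97 Igkv segments were 0.839 to 0.905 of those of Igkc in untreated B6, 0.719 to 0.827 in treated B6, 0.562 to 0.706 in untreated SLE123 and 0.795 to 0.839 in treated SLE123.

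Markers of antibody-producing cells moved with the members, and their part in the results was not tested. Of the 12 plasma cell genes, 12 were higher in SLE123 both without and with treatment. In B6, 4 of them rose after treatment: Mzb1, a chaperone of the endoplasmic reticulum (1.95 ± 0.38, limma adjusted p = 0.0198), Slpi, a protease inhibitor (1.64 ± 0.32, adjusted p = 0.0208), Xbp1, the transcription factor of secretory differentiation (0.34 ± 0.08, adjusted p = 0.0324), and Txndc5, a protein disulfide isomerase (0.25 ± 0.06, adjusted p = 0.0309). In SLE123, limma and voom called 0 of the 12 after treatment, with 4 at an unadjusted p under 0.05. Their summed level was 126 to 147 FPKM in untreated B6, 170 to 299 in treated B6, 2524 to 6293 in untreated SLE123 and 1358 to 2483 in treated SLE123.

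Of 9 B cell markers tested, 7 rose in B6 after treatment, among them Cd79a, a signalling subunit of the B cell receptor, by 1.83 ± 0.13 (limma adjusted p = 0.000752), while limma and voom called 0 in SLE123 (1 at an unadjusted p under 0.05). The 12 B cell markers summed to 7.48 to 8.85 FPKM in untreated B6, 27.4 to 37.7 in treated B6, 75.0 to 266 in untreated SLE123 and 45.9 to 73.1 in treated SLE123. Myeloid markers rose in B6 as well (5 of 6 tested, summed level 8.66 to 15.2 FPKM without treatment and 53.8 to 123 with it). Of 11 T cell markers, 4 fell in B6 after treatment, with log2 fold changes of -0.34 for Trac, -0.23 for Cd28, -0.16 for Cd5 and -0.15 for Cd3g. Of 3 germinal centre markers tested, Fas was lower in B6 after treatment (-0.19) and the other 2 were not called.

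**Figure D5:**
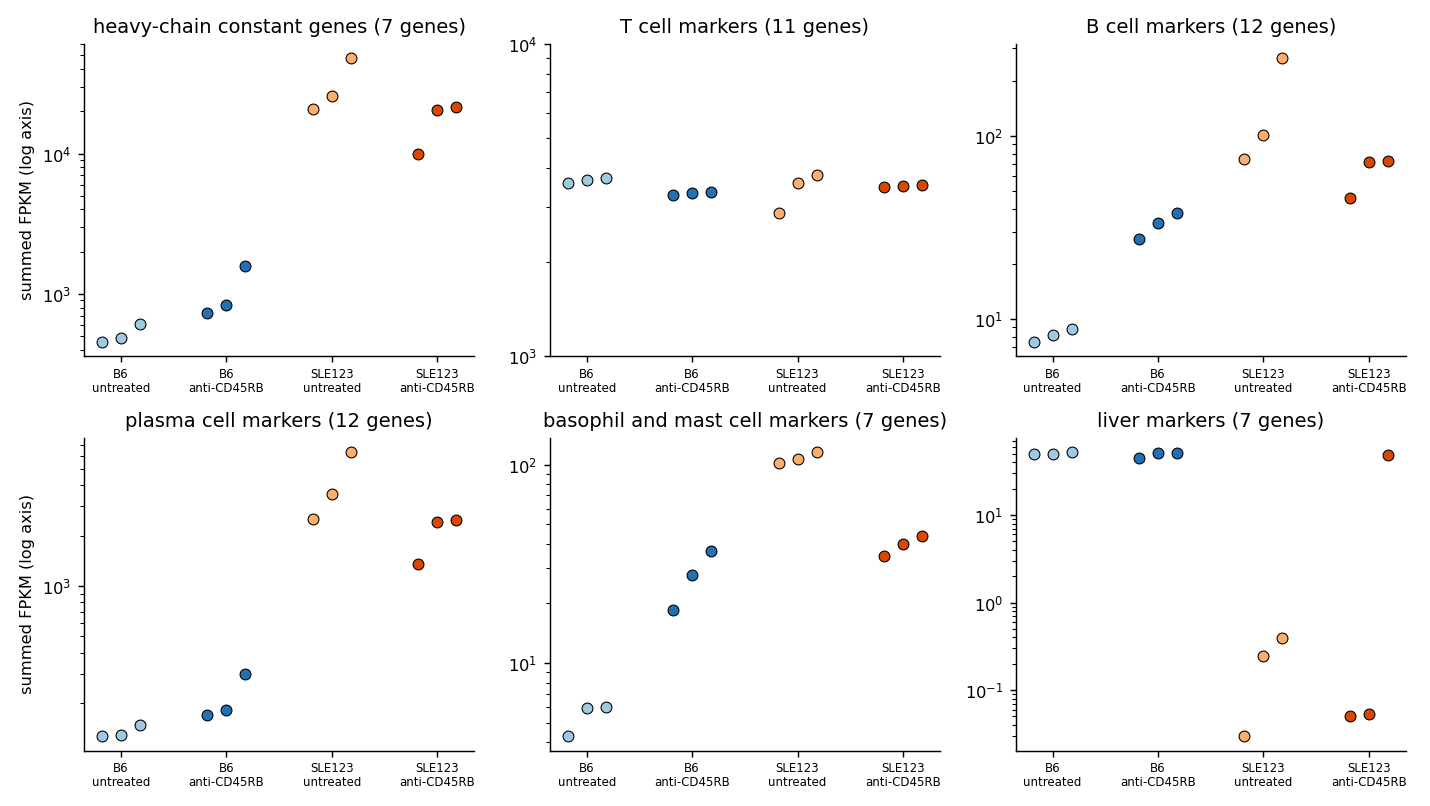
Each point is the summed FPKM of a gene list in 1 mouse (log axis), ordered from lowest to highest within each group. The heavy-chain constant genes (454 to 47772 FPKM) span about the same order of groups as the plasma cell markers, the T cell markers stay between 2871 and 3799 FPKM, and the liver markers are near 50 FPKM in the B6 groups and in 1 treated SLE123 mouse.

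Of 12 tested genes of class switch recombination and hypermutation, limma called 0 after treatment in either strain (3 at an unadjusted p under 0.05 in B6 and 1 in SLE123), and voom called 1 in B6 and 0 in SLE123. They had median log2 fold changes of -0.05 in B6 and 0.07 in SLE123, against -0.00 and 0.04 over all genes tested. Between untreated strains, 3 were higher and 3 lower in SLE123.

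Of 12 cytokines and receptors tested that direct the choice of isotype, Ifng was the 1 gene called in B6 after treatment (0.40 ± 0.08, limma adjusted p = 0.0227). In SLE123 limma and voom called 0, with 2 at an unadjusted p under 0.05. Il4, which directs switching to Ighg1 and Ighe, was 4.57 to 5.14 FPKM in untreated and 3.73 to 7.57 FPKM in treated B6 mice (0.20 ± 0.21, adjusted p = 0.536). Without treatment, 5 of the 12 were higher in SLE123 and 4 lower, with a median of 0.05. Il21, a cytokine of follicular helper T cells, was higher in SLE123 by 3.50 ± 0.24 (adjusted p = 6.31e-05), Il10 by 3.02 ± 0.23 (adjusted p = 8.72e-05), Ifng by 1.21 ± 0.13 (adjusted p = 0.000394), Il4 by 1.09 ± 0.10 (adjusted p = 0.000205), and Tnfsf13b, a survival factor of B cells, by 1.67 ± 0.17 (adjusted p = 0.000327). Il4ra, the receptor for Il4, was lower (-1.39 ± 0.18, adjusted p = 0.00107), as were Tgfbr2, a receptor for TGF-beta (-0.56), Cd40lg, the T cell ligand of CD40 (-0.44), and Ifngr1, a receptor for interferon-gamma (-0.34).

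Receptors that bind the constant regions differed between the strains in their response. Of 8 tested, 6 rose in B6 after treatment (median 1.25 on the log2 scale, over the 8). In SLE123, where the median was -0.51, limma and voom called 0. All 8 had an unadjusted p under 0.05, as did 1369 of all 13115 genes tested. The 8 did not all fall. Fcgrt was 5.97 to 6.38 FPKM in untreated and 8.38 to 11.8 in treated SLE123 mice, and Trim21 was 23.7 to 30.4 and 32.0 to 35.7. In the test of the difference between the strains, 6 were called lower. Fcmr, the receptor for IgM, rose in B6 by 2.40 ± 0.11 (limma adjusted p = 0.000274) and had an estimate of -1.64 ± 0.52 in SLE123 (adjusted p = 0.455). Basophils and mast cells display IgE on their surface. Of 7 of their genes tested, 6 rose in B6. Fcer1a and Ms4a2 are on both this list and that of the receptors. In SLE123, 2 of this list were called, both lower. They were the basophil proteases Prss34 (-1.91 ± 0.13, adjusted p = 0.0111) and Mcpt8 (-1.59 ± 0.13, adjusted p = 0.0208). The list summed to 4.29 to 6.05 FPKM in untreated B6, 18.5 to 36.5 in treated B6, 102 to 115 in untreated SLE123 and 34.8 to 43.9 in treated SLE123, and its part in the values of Ighe was not tested. The difference between the strains was -4.56 ± 0.39 for Prss34 (adjusted p = 0.000325) and -3.82 ± 0.26 for Mcpt8 (adjusted p = 9.64e-05).

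The genes outside the immunoglobulin loci whose log2(FPKM + 1) followed the members most closely over the 12 mice were also listed, as a description, since all points share the 4 groups. For Ighm they were Ltk, Pkdcc, Sdc1, Ryk and Tpi1 (Pearson r between 0.995 and 0.997), of which Sdc1 encodes the plasma cell surface marker CD138. For Ighg2b they were Dmwd, Cd44, Pcyt1b, Odc1 and Jchain (0.992 to 0.996), and for Igha they were Mzb1, Nfe2l1, Tmbim1, Ly6d and Zcchc18 (0.986 to 0.99). With group means removed, the correlations were 0.798 to 0.974.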

How the data were processed

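Purified CD4+ T cells of 12 mice were sequenced after poly-A selection. The authors deposited FPKM values per gene and library. Per the labels, CASAVA 1.8 and STAR were used with the mm10 genome. The counting program, the annotation release and strand handling are not given in the sources used here. The methods also name a sort into CD25+ and CD25- cells, which no title mentions.

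Identifiers were matched to GENCODE M21 (97.8% of 35275), which gave symbols and GRCm38 coordinates. Ighd, Iglc1 and Iglc3 had no match, so the planned ratio of Ighd to Ighm was not run. Whole fragments were recovered from the steps of the FPKM values (100% of 21259 genes above 0 in at least 2 mice, to within 0.02 fragments). At these depths, 3 fragments equal 0.0634 to 0.111 FPKM on 2000 bases. The lengths this implies were 323 bases for Igkc and 974 to 1424 for the heavy-chain members. The length for Ighg2c (1212) exceeded those of the other Ighg genes (974 to 1010), which lowers its FPKM and its share relative to theirs.

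The 13115 genes whose mean FPKM reached 0.5 were tested on log2(FPKM + 1) with limma 3.58.1 (R 4.3.3, eBayes with trend) within pairs of groups, and over 12 mice for the strain-by-treatment interaction, with Benjamini-Hochberg adjustment over all genes at 0.05. The scripts were tested on simulated data. Shares were compared by two-sided exact permutation (smallest p 0.1 for 3 against 3 mice, 0.005 for 400 relabelings). Of the 11 per-mouse values, 4 were planned and 7 were added after the values were seen. The members, lists and alternatives were chosen with earlier results of these data known. Named genes were the members, Iglc2, Jchain, at most 4 genes per list together with those called, and the 5 genes closest to Ighm, Ighg2b and Igha. Cd4 was added after its values were seen. Some listed genes are not reported here. Alternatives were other pseudocounts, filters, scalings and variance fits, voom on recovered fragments, a replicate block, and each mouse left out.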

Additional observations from a re-analysis of the deposited data

Results flagged for a closer look

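In limma's test of whether the effect of anti-CD45RB differed between the strains, 2 of the 8 constant genes were called, 1 of them narrowly. For Ighg1 the effect in SLE123 minus that in B6 was -2.86 on the log2 scale, with a rise in 3 of 3 treated B6 mice above all untreated ones and overlapping groups in SLE123. That call was lost without any 1 of 9 of the 12 mice, with treated SLE123 mice 2 and 3 averaged and under 4 other alternatives (adjusted p = 0.0607 to 0.178), and in share of the heavy-chain signal the difference of Ighg1 had an exact permutation p of 0.655. For Ighe it was -3.03, with all treated mice above all untreated mice in B6 and below them in SLE123, and its call was lost with a replicate block (adjusted p = 0.0605). The share of Ighe in the heavy-chain signal also differed, by -0.16 percentage points in the exact permutation of treatment within strains, at the smallest p that 400 relabelings allow, and did not hold after adjustment over 11 values.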

How the results depend on the processing

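The 8 members called between untreated strains and the 7 called between treated strains were called under all 17 and 19 alternatives, and the latter also with Ighe under 1 of them. In B6, 0 to 4 members were called and in the interaction 0 to 5. Genes called in B6 (1948) numbered 1134 without a filter and 815 in a fit of all 12 mice, and those in SLE123 (5) numbered 21 after rescaling to TPM, 3 with voom, 53 in the fit of all 12 mice and 2 with treated mice 2 and 3 averaged, which gave 228 for the interaction (478). Leaving out 1 mouse gave 675 to 1393 genes in B6, 1 to 7 in SLE123, 3672 to 6469 between untreated strains and 205 to 2917 for the interaction, with the lowest counts without untreated B6 mouse 4 (B6, untreated strains, interaction) and the highest for the interaction without untreated SLE123 mouse 1. The B6 count was also lower without untreated mouse 3 (848), treated mouse 3 (1109) or treated mouse 5 (844), that between untreated strains without B6 mouse 3 (3710), and that of the interaction moved without each mouse but untreated SLE123 mice 2 and 3. In SLE123, 1 gene was left without untreated mouse 1 or 2 or treated mouse 2 or 3. The treatment difference of the Ighg share was 9.59 to 16.4 points, and without any 1 untreated B6 mouse it no longer passed. Rescaling to TPM moved the median of all genes by -0.37 between untreated and -0.17 between treated strains and by 0.19 in SLE123, and cut the share of higher calls between untreated strains from 53.2% to 24.3%. Quantile normalization gave 34.1%, and scaling to fragments outside immunoglobulin genes gave 67.4%. Between treated strains the shares were 56.8%, and 35.3%, 35.4% and 66.5% under the same alternatives, in B6 58.8% against 48.7% under quantile normalization, and in the interaction 34.7% against 20.5% when centred and 22.9% when scaled to other fragments. The causes of these changes were not tested.

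Replicate numbers are shared by 2 B6 pairs (correlation of deviations -0.14 and -0.094) and 3 SLE123 pairs (0.137, -0.161 and 0.266), so they did not pair the mice. With a replicate block, 0 genes were called in B6 (4 mice), 34 in the interaction and 3414 between treated strains. The adjusted p was 0.16 for Ighg1, 0.154 for Igha and 0.167 for Ighe in B6, and 0.0605 for Ighe in the interaction. Untreated strains share 1 number, so no block could be fitted there.

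Estimates near 0 changed sign. In SLE123, Igha gave 0.0155 after TPM rescaling, 0.0591 after quantile normalization and -0.65 to 0.14 without 1 mouse. Igkc was not near 0 in SLE123 (-1.03) but gave 0.00 after quantile normalization. That method gives equal ranks equal values, so a gene of the same rank in every SLE123 library gets 0 whatever its level. In B6, Ighg2c gave -0.18 to 1.34 without 1 mouse. Share differences in B6 after treatment were, for Ighg2b, 0.25 points on fragments, 0.0697 with the replicate block and -0.77 to 0.78 without 1 mouse, for Ighg3 0.14, 0.22 and -0.28 to 0.36, and for Ighg2c -1.44 to 0.94 without 1 mouse. The Ighg1 share between strains was -6.49 to 3.02 points with treatment and -1.45 to 3.31 over both.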
